A study of Arabidopsis thaliana with 21 samples.

Results

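The expansin, xyloglucan endotransglucosylase/hydrolase (XTH) and trichome birefringence-like (TBL) genes of Arabidopsis thaliana were followed on arrays of the aerial parts of plants. The plants were wild type or carried mutations in some of the CAMTA transcription factor genes, and were taken in the warm or after cold. A gene was taken where a probe set maps to it alone in the array annotation and its symbol begins with EXPA, EXPB, EXLA, EXLB, XTH or TBL and a digit. The rule found 49 of the 13356 genes named on the array, each with a single probe set. They were 18 expansins (10 EXPA, 4 EXPB, 3 EXLA and 1 EXLB), 9 XTH genes and 22 TBL genes. Another 2 probe sets each match several EXPA genes and were left out. All plants were of the Col-0 ecotype, on soil for 3 weeks at 22 °C with 12 h of light per day, and each group had 3 arrays. The groups were camta1/2/3 after 24 h at 4 °C and wild type (WT) after 24 h at 4 °C, then camta1/2/3, camta1/2, camta1/3, camta2/3 and WT kept at 22 °C. The names give the mutated genes. The labels name neither the alleles nor how many plants made up a sample, and the double mutants were measured at 22 °C alone.

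The primary wall of a growing plant cell holds cellulose microfibrils in a matrix of xyloglucan, mannan, xylan and pectin. Alpha-expansins (EXPA) and beta-expansins (EXPB) loosen this network without cutting it, so that the cell can enlarge, while the expansin-like EXLA and EXLB proteins share their structure and have no established loosening activity. XTH enzymes cut xyloglucan chains and rejoin them or hydrolyse them. TBL proteins include the O-acetyltransferases of wall polysaccharides: TBL25 and TBL26 act on mannan, and TBL28, TBL30, TBL32, TBL34 and TBL35 on xylan. CAMTA proteins are calmodulin-binding transcription activators, and in Arabidopsis they are known for roles in cold-regulated expression and in holding back immune responses in the warm.

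Levels are given as deposited log2 values, so a difference of 1 is a 2-fold change. Array medians lay between 4.86 and 5.01, and the arrays of a group correlated at 0.985 to 0.995 over all probe sets. CAMTA1, CAMTA2 and CAMTA3 were not named on the array, which left the genotypes unchecked. Of 27 marker genes fixed for photosynthetic tissue, root, flower, secondary wall and xylem, and guard cells, 5 were named. They were 3 photosynthetic, 1 root and 1 guard cell gene. The photosynthetic markers LHCB4.2, RCA and PRK lay between 9.75 and 13.83 on every array, and PYK10, a root and seedling gene, was at 7.14 ± 0.18 in camta1/2/3 and 6.40 ± 0.05 in WT at 4 °C, and 8.83 ± 0.43 in camta1/2/3 and 7.97 ± 0.48 in WT at 22 °C (SD, n = 3). Actin control probe sets at the 3′ end read above those at the 5′ end, a gap that grows when RNA is broken or copied short, and it was 3.11 ± 1.0 in camta1/2/3 and 2.00 ± 0.62 in WT at 4 °C, and 2.90 ± 0.13 in camta1/2/3 and 2.23 ± 0.21 in WT at 22 °C. With that gap in the model, 70 of the 82 calls on these genes remained. Whole aerial parts were measured, so fewer cells of a type and less RNA per cell cannot be told apart.

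Of the 49 genes, 27 had a mean of at least 4 over the 21 arrays (55.1%, against 60.9% of all probe sets). A further 5, EXPA16, EXPA20, EXPA24, TBL35 and TBL41, averaged under 4 and exceeded it on some arrays. The other 17 stayed under 4 on every array, with 3.72 as their highest value, and 14 of them had every group mean under 3. The root-hair expansins EXPA7 and EXPA18 were among these 14. EXPA7 and TBL20 read 2.17 on all 21 arrays. The files hold no detection calls, so such a value does not say whether the transcript is there, and a difference from a group near 3 or under may understate the change. Values above 3 also recurred for some genes: 3.94 on 14 arrays for EXPA24, 4.48 on 13 for XTH21, 4.45 on 11 for TBL30 and 4.99 on 8 for EXPB2. A mean of at least 4 therefore does not show that a transcript was detected. By mean over all arrays, EXPA15, EXPB3, EXLA1, EXLB1, XTH32 and TBL45 had the highest value of their families among the 49 genes. Values of different probe sets do not rank genes by abundance.

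**Figure D1:**
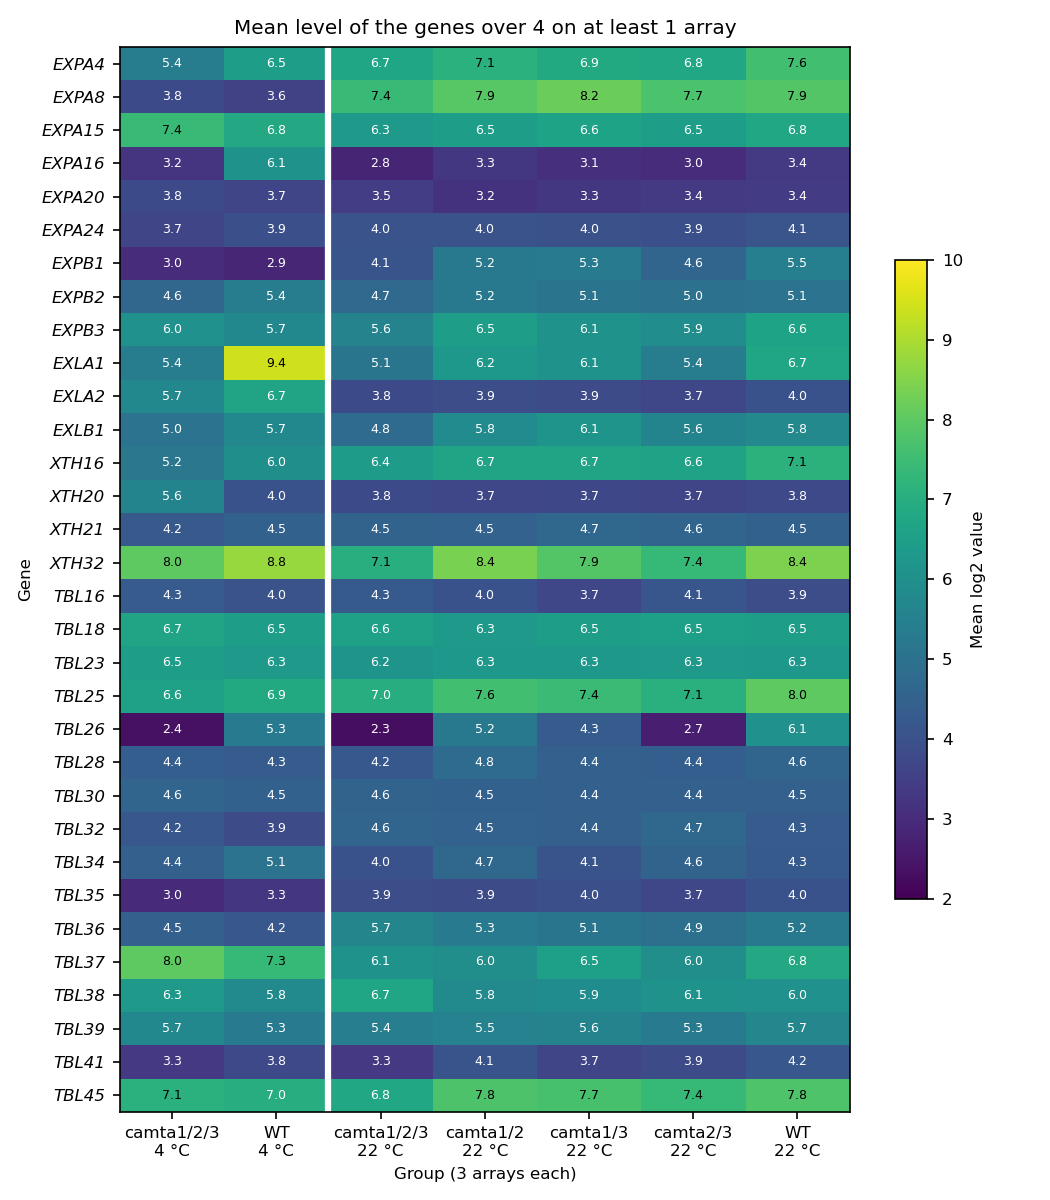
Mean log2 value (colour) of each gene that passed 4 on at least 1 array, in rows, in the 7 groups of 3 arrays, in columns, with the 4 °C groups left of the white line. The rows of EXPA8 and EXPB1 are dark in both 4 °C columns, EXLA1 and EXPA16 are brightest in WT at 4 °C, and TBL26 is dark in the camta1/2/3 columns at both temperatures and in camta2/3.

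A gene was called higher or lower where limma's test over all 22746 probe sets gave a Benjamini-Hochberg adjusted p under 0.05. Over 11 comparisons 25 of the 49 genes were called at least once, and 24 were not. With only the arrays of the groups compared, which leaves fewer to estimate the spread, 44 of the 82 calls remained. The called genes were 20 of the 27 with a mean of at least 4, 2 of the 5 that passed it on some arrays and 3 of the 17 that stayed under it. How many of all probe sets were called at least once was not counted, so these counts are a description. Among the genes never called, TBL18 ran from 5.86 to 6.90 and TBL23, a mannan O-acetyltransferase, from 5.80 to 6.59 over all 21 arrays.

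In WT, 24 h at 4 °C lowered 9 of the 49 genes and raised 4. Together these were 26.5% of the genes, against 23.1% of all probe sets (9.93% higher and 13.1% lower), so the share called was near the background. The median difference of the 49 genes was 0.00, as it was over all probe sets. Of 18 expansins 3 rose and 4 fell, of 9 XTH genes 1 rose and 1 fell, and of 22 TBL genes none rose and 4 fell. Cold in camta1/2/3 raised 6 genes and lowered 7, again 26.5% against 22.2% of all probe sets (9.96% higher and 12.3% lower). There the counts were 3 higher and 3 lower among the expansins, 2 and 1 among the XTH genes, and 1 and 3 among the TBL genes. The photosynthetic marker LHCB4.2 also fell with cold, by 1.58 in camta1/2/3 and by 2.17 in WT. RCA fell by 0.64 in camta1/2/3 and by 0.80 in WT, and PRK by 1.01 in both. PYK10 fell by 1.69 in camta1/2/3 (adjusted p = 0.00101) and by 1.57 in WT (adjusted p = 0.00167). Of the 5 markers only FAMA was not called in either genotype, and the part of the markers in these results was not tested.

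EXPA4, EXPA8, EXPB1, XTH16, TBL25, TBL35 and TBL36 were called lower at 4 °C in both genotypes, which is 100% of the 7 called lower in camta1/2/3 and 77.8% of the 9 called lower in WT. EXLA2 alone was called higher in both, 16.7% of 6 in camta1/2/3 and 25.0% of 4 in WT, and no gene was called in opposite directions. These shares describe the 49 genes and were not set against all probe sets, and some of the calls rested on single arrays, as given with TBL25, TBL35 and TBL36. No array entered the cold responses of both genotypes.

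EXPA8 (AT2G40610), an alpha-expansin, had the largest fall of the 49 genes. In camta1/2/3 it read 3.64, 4.55 and 3.19 at 4 °C, against 7.73, 6.83 and 7.71 at 22 °C. In WT it read 4.09, 3.49 and 3.15 at 4 °C, against 7.41, 7.59 and 8.62 at 22 °C. All 6 cold arrays lay below all 15 warm ones, whose lowest value was 6.83. The change was -3.63 ± 0.43 (SE) in camta1/2/3 (12.4-fold lower, adjusted p = 2.22e-05) and -4.30 ± 0.43 in WT (19.7-fold lower, adjusted p = 3.51e-06), and the genotypes' changes were not called different.

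EXPA4 (AT2G39700), also an alpha-expansin, fell with cold in both genotypes. Its values were 5.54, 4.91 and 5.73 in camta1/2/3 and 6.64, 6.45 and 6.32 in WT at 4 °C. At 22 °C they were 6.65, 6.83 and 6.60 in camta1/2/3 and 7.69, 7.69 and 7.32 in WT. Cold and mutation each went with lower values, so that the 3 cold camta1/2/3 arrays were the lowest of the 4 groups and the 3 warm WT arrays the highest. The cold response was -1.30 ± 0.18 in camta1/2/3 (adjusted p = 9.19e-05) and -1.10 ± 0.18 in WT (adjusted p = 0.000366).

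Among the XTH genes named here only XTH16 (AT3G23730) was called lower with cold. It read 5.62, 4.76 and 5.17 in camta1/2/3 and 6.10, 6.22 and 5.65 in WT at 4 °C, against 6.55, 6.33 and 6.33 in camta1/2/3 and 7.19, 7.0 and 7.23 in WT at 22 °C. Within each genotype the cold arrays lay below the warm ones, by 1.22 ± 0.21 in camta1/2/3 (adjusted p = 0.000554) and by 1.15 ± 0.21 in WT (adjusted p = 0.00083).

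TBL25 (AT1G01430), which acetylates mannan, was the TBL gene with the largest fall in WT. Its 4 °C values were 6.65, 6.64 and 6.45 in camta1/2/3 and 6.95, 6.90 and 6.74 in WT. At 22 °C it read 7.09, 6.85 and 7.01 in camta1/2/3 and 7.91, 7.89 and 8.24 in WT. The fall was -0.40 ± 0.14 in camta1/2/3 (adjusted p = 0.0469) and -1.15 ± 0.14 in WT (adjusted p = 1.86e-05), and the difference between the falls was not called (adjusted p = 0.0679). The call in camta1/2/3 was lost in 5 of 6 fits that each left out an array (adjusted p up to 0.151). TBL36 (AT3G54260) read 4.04, 4.72 and 4.64 at 4 °C, against 5.20, 5.88 and 5.98 at 22 °C, in camta1/2/3. In WT it read 4.17, 3.86 and 4.45 at 4 °C, against 5.89, 4.83 and 4.98 at 22 °C. The groups did not overlap in either genotype, and the changes were -1.22 ± 0.32 in camta1/2/3 (adjusted p = 0.0127) and -1.07 ± 0.32 in WT (adjusted p = 0.0252). Leaving out 1 array lost these calls in some fits, with adjusted p up to 0.0605 in camta1/2/3 (without replicate 1 at 4 °C) and 0.122 in WT (without replicate 1 at 22 °C). The xylan acetyltransferase TBL35 was lower in both as well, by less than 1, and its call in WT was lost in 4 of 6 fits without an array (adjusted p up to 0.11), while TBL45 was called lower in WT alone.

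EXLA2 (AT4G38400), an expansin-like gene whose loss is known to alter resistance to the fungus Botrytis, rose with cold in both genotypes. In camta1/2/3 it read 6.0, 5.37 and 5.84 at 4 °C, against 3.69, 3.90 and 3.76 at 22 °C. In WT it read 6.86, 6.83 and 6.29 at 4 °C, against 3.94, 3.94 and 4.2 at 22 °C. The increase was 1.95 ± 0.16 in camta1/2/3 (3.87-fold, adjusted p = 6.31e-07) and 2.63 ± 0.16 in WT (6.21-fold, adjusted p = 2.2e-08). The cold level was lower in camta1/2/3 than in WT by 0.92 ± 0.16 (adjusted p = 0.000698) with no overlap, while the difference between the increases, -0.68, was not called (adjusted p = 0.172).

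Cold raised 5 genes in camta1/2/3 that were not called in WT: EXPA15, EXLA3, XTH20, XTH32 and TBL37. Of these, XTH20 was also called for the difference from the response of WT, given below. TBL37 (AT2G34070) read 7.86, 8.46 and 7.75 at 4 °C, against 6.02, 6.10 and 6.14 at 22 °C, in camta1/2/3. In WT it read 7.42, 7.46 and 7.16 at 4 °C, against 7.57, 6.90 and 6.01 at 22 °C. The WT arrays at 22 °C were spread over the widest range of any group for this gene and overlapped the cold ones. The change was 1.94 ± 0.38 in camta1/2/3 (3.83-fold, adjusted p = 0.00161) and 0.52 in WT (95% interval -0.29 to 1.33), and the difference of the changes, 1.42, was not called (adjusted p = 0.248).

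The alpha-expansin EXPA15 (AT2G03090) read 7.43, 7.27 and 7.46 in camta1/2/3 and 6.69, 7.02 and 6.81 in WT at 4 °C. At 22 °C its values were 6.44, 6.19 and 6.39 in camta1/2/3 and 6.97, 6.73 and 6.70 in WT. The cold camta1/2/3 arrays were the highest of all 21 for this gene. It rose by 1.05 ± 0.21 in camta1/2/3 (adjusted p = 0.0019), and the difference from the response of WT, 1.01, was not called (adjusted p = 0.112), although it was with only the arrays of these 4 groups (adjusted p = 0.0269). XTH32 (AT2G36870), of the clade that includes xyloglucan-hydrolysing enzymes, read 8.20, 7.48 and 8.41 at 4 °C, against 7.09, 6.86 and 7.21 at 22 °C, in camta1/2/3. In WT it read 8.80, 8.77 and 8.72 at 4 °C, against 8.33, 8.34 and 8.56 at 22 °C. The rise in camta1/2/3 was 0.98 ± 0.23 (adjusted p = 0.00547), and at 4 °C every camta1/2/3 array lay below every WT array. In WT, too, the cold arrays of XTH32 lay above the warm ones. With only the arrays compared, the rise in camta1/2/3 was not called (adjusted p = 0.11), whereas that in WT, 0.35, was (adjusted p = 0.047). The call of EXLA3, a rise of 0.55, was lost in 5 of 6 fits without an array. Among these was the fit without camta1/2/3 replicate 1 at 4 °C, at 3.44 (0.28, adjusted p = 0.178). The call was also lost with quantile normalization and with only the arrays compared, and the gene stayed under 4 on every array.

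**Figure D2:**
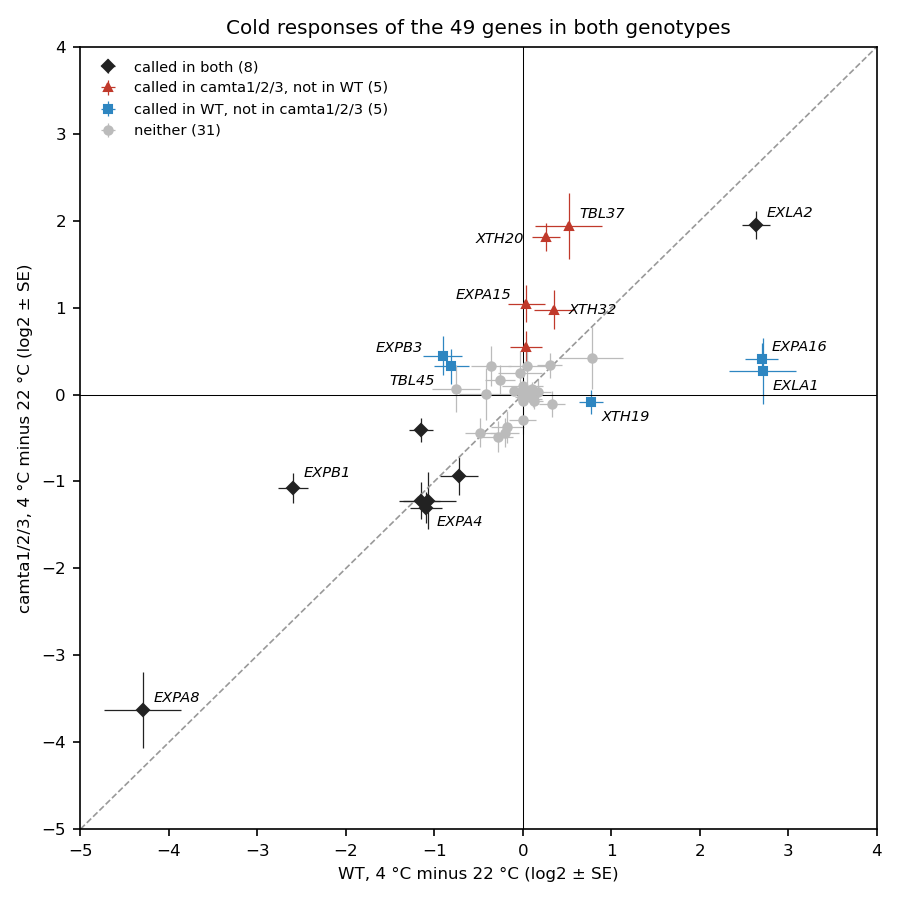
Cold response (4 °C minus 22 °C, log2, with SE bars) of each of the 49 genes in WT (horizontal) and in camta1/2/3 (vertical); the dashed line marks equal responses and the colours mark in which genotype a gene was called. EXPA8 lies near the line at -3.63 in camta1/2/3 and -4.30 in WT, whereas EXLA1 and EXPA16 lie far to the right, at 0.27 and 0.41 in camta1/2/3 and at 2.71 and 2.70 in WT.

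Whether cold acted differently in camta1/2/3 and WT was asked with the interaction, the cold response of camta1/2/3 minus that of WT. It was called for 6 of the 49 genes, 12.2%, against 1.97% of all probe sets (1.12% higher and 0.849% lower). Of these 3 were positive, EXPB1, EXPB3 and XTH20, and 3 negative, EXPA16, EXLA1 and XTH19. They were 4 of 18 expansins and 2 of 9 XTH genes. None of the 22 TBL genes was called, and quantile normalization added TBL25 and TBL45 for 5 positive and 3 negative. With the 12 arrays of these 4 groups alone, EXPA16, EXPB1 and XTH20 were still called, while EXLA1 (adjusted p = 0.0658), EXPB3 (0.0722) and XTH19 (0.162) were not, and EXPA15 was added (0.0269).

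The alpha-expansin EXPA16 (AT3G55500) rose with cold in WT, while its change in the mutant was not called. In camta1/2/3 it read 3.01, 3.13 and 3.54 at 4 °C, against 2.93, 2.87 and 2.66 at 22 °C. In WT it read 6.53, 5.84 and 5.83 at 4 °C, against 3.52, 3.44 and 3.14 at 22 °C. The 3 cold WT arrays stood apart from the other 18, the highest of which read 3.60. Both camta1/2/3 groups averaged near 3, where a change may be understated. The cold response was 0.41 in camta1/2/3 (95% interval 0.01 to 0.80, adjusted p = 0.146) and 2.70 ± 0.19 in WT (6.50-fold, adjusted p = 7.64e-08), and the responses differed by -2.29 ± 0.26 (adjusted p = 0.000259).

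EXLA1 (AT3G45970), an expansin-like gene, showed the same arrangement at higher values. In camta1/2/3 it read 5.43, 5.47 and 5.24 at 4 °C, against 4.96, 5.32 and 5.05 at 22 °C. In WT it read 9.94, 9.75 and 8.61 at 4 °C, against 7.23, 6.48 and 6.46 at 22 °C. Both WT groups lay above every camta1/2/3 array. The cold response was 0.27 in camta1/2/3 (95% interval -0.53 to 1.07) and 2.71 ± 0.38 in WT (6.54-fold, adjusted p = 8e-05), a difference of -2.44 ± 0.53 (adjusted p = 0.0276). That call was lost in 8 of 12 fits that each left out an array, the highest adjusted p being 0.0732. EXLA3, whose gene is next to EXLA1 on the chromosome, stayed under 3 in every group mean.

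XTH19 (AT4G30290), known to influence freezing tolerance after acclimation, was low everywhere. It read 2.57, 2.57 and 2.68 at 4 °C, against 2.57, 2.96 and 2.55 at 22 °C, in camta1/2/3. In WT it read 3.61, 3.35 and 3.72 at 4 °C, against 2.70, 3.10 and 2.56 at 22 °C. The 3 cold WT arrays were the highest of all 21, still under 4. The value 2.57 recurred on 7 arrays, and both camta1/2/3 groups lay where a change might not show. The response was -0.09 in camta1/2/3 (95% interval -0.37 to 0.20) and 0.77 ± 0.13 in WT (adjusted p = 0.000577), a difference of -0.86 ± 0.19 (adjusted p = 0.0295). The call was lost in 7 of 12 fits without an array, with adjusted p up to 0.0775. The neighbouring XTH18 stayed under 3 in every group mean.

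XTH20 (AT5G48070), which with XTH19 is known for a role in the healing of cut stems, rose with cold in the mutant. In camta1/2/3 it read 6.06, 5.16 and 5.60 at 4 °C and 3.79 on each array at 22 °C. In WT it read 3.94, 3.89 and 4.24 at 4 °C, against 3.69, 3.79 and 3.79 at 22 °C. The value 3.79 recurred on 10 of the 21 arrays, and the cold camta1/2/3 arrays stood above all others. The response was 1.82 ± 0.16 in camta1/2/3 (3.52-fold, adjusted p = 1.14e-06) and 0.27 in WT (95% interval -0.07 to 0.61, adjusted p = 0.274), a difference of 1.55 ± 0.22 (adjusted p = 0.0024).

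The beta-expansin EXPB1 (AT2G20750) fell with cold in both genotypes. In camta1/2/3 it read 2.97, 2.97 and 3.10 at 4 °C, against 4.2, 4.03 and 4.03 at 22 °C. In WT it read 2.97, 2.63 and 2.97 at 4 °C, against 5.20, 5.29 and 5.87 at 22 °C. The value 2.97 recurred on 4 arrays, all cold, and no cold array exceeded 3.10. The response was -1.07 ± 0.17 in camta1/2/3 (adjusted p = 0.00031) and -2.60 ± 0.17 in WT (6.05-fold lower, adjusted p = 5.3e-08), a difference of 1.52 ± 0.24 (adjusted p = 0.00422). Both cold groups lay near the lowest values of the table, where a further fall might not show. The sizes of the falls, and which was larger, are therefore undetermined, and their difference has about the size of the gap between the genotypes at 22 °C, where camta1/2/3 was lower by 1.37.

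EXPB3 (AT4G28250), another beta-expansin, read 5.92, 6.01 and 6.18 in camta1/2/3 and 5.53, 5.79 and 5.88 in WT at 4 °C. At 22 °C it read 5.74, 5.22 and 5.81 in camta1/2/3 and 6.31, 6.92 and 6.69 in WT. The warm WT arrays were above those of the other 3 groups, which lay between 5.22 and 6.18. The response was 0.45 in camta1/2/3 (95% interval -0.03 to 0.92, adjusted p = 0.185) and -0.91 ± 0.22 in WT (adjusted p = 0.00733), and the difference was 1.35 ± 0.31 (adjusted p = 0.0382). With the actin gap in the model its adjusted p was 0.0575, and the call was lost in 10 of 12 fits without an array, with adjusted p up to 0.0988.

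**Figure D3:**
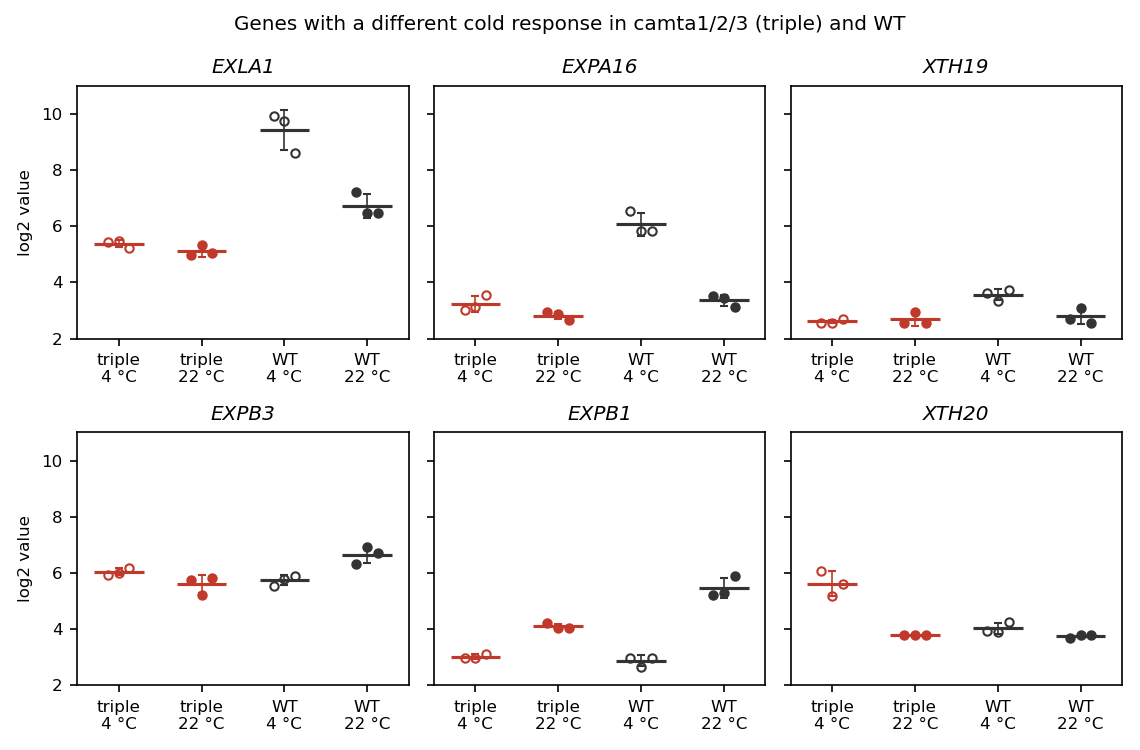
Log2 value on each array (points), with group mean and SD (bars), of the 6 genes called for the interaction of camta1/2/3 (triple) and WT. Open points mark 4 °C and filled points 22 °C. EXLA1, EXPA16 and XTH19 are highest in WT at 4 °C (means of 9.43, 6.07 and 3.56), XTH20 is highest in camta1/2/3 at 4 °C (5.61), and EXPB3 and EXPB1 are highest in WT at 22 °C (6.64 and 5.45).

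At 4 °C, camta1/2/3 was lower than WT for 9 of the 49 genes and higher for 1, 20.4% against 21.1% of all probe sets (10.5% higher and 10.6% lower). The 9 were 5 expansins (EXPA4, EXPA16, EXPB2, EXLA1 and EXLA2), 3 XTH genes (XTH16, XTH19 and XTH32) and TBL26, and the gene higher in the mutant was XTH20. EXLA1 averaged 5.38 ± 0.12 in camta1/2/3 and 9.43 ± 0.72 in WT (SD, n = 3), a difference of -4.05 ± 0.38 (16.6-fold, adjusted p = 2.64e-06). EXPA16 differed by -2.84 ± 0.19 (7.16-fold, adjusted p = 9.41e-08) and XTH19 by -0.95 ± 0.13 (adjusted p = 0.000117), and XTH20 was higher by 1.58 ± 0.16 (3.00-fold, adjusted p = 5.64e-06). EXPA4 was lower by 1.08 ± 0.18 (adjusted p = 0.000527). With the actin gap in the model the lower values of XTH32 (adjusted p = 0.0317) and XTH16 (0.012) were not called (0.5 and 0.173). Fits without an array lost the call of XTH32 in 4 of 6 and that of XTH16 in 2 of 6. For XTH32 these were the fits without any 1 of the cold WT arrays or without camta1/2/3 replicate 2 at 4 °C (-0.46, adjusted p = 0.155). That replicate was the array with the widest gap.

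TBL26 (AT4G01080), a mannan O-acetyltransferase gene, was lower in camta1/2/3 at both temperatures. It read 2.31, 2.36 and 2.44 in camta1/2/3 and 5.76, 4.97 and 5.18 in WT at 4 °C. At 22 °C it read 2.23, 2.36 and 2.31 in camta1/2/3 and 6.67, 6.12 and 5.38 in WT. All 6 camta1/2/3 arrays lay near the lowest values of the table and below every WT array. The difference was -2.93 ± 0.27 at 4 °C (7.64-fold, adjusted p = 2.58e-06) and -3.76 ± 0.27 at 22 °C (13.5-fold, adjusted p = 3.5e-07), the largest difference of the 49 genes between genotypes at 22 °C. Cold itself was not called for TBL26 in camta1/2/3 (0.07) or in WT (-0.75, adjusted p = 0.0587). The fall in WT was called with a block for the replicate number (adjusted p = 0.0413), with the filter at a mean of 4 (0.0252), when the cold WT replicate 1 was left out (-0.98, 0.0241) and when the warm WT replicate 3 was (-1.09, 0.00506).

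At 22 °C, camta1/2/3 was lower than WT for 11 of the 49 genes and higher for 1. That was 24.5%, against 23.5% of all probe sets (11.1% higher and 12.4% lower). The 11 were 6 of 18 expansins (EXPA4, EXPA16, EXPB1, EXPB3, EXLA1 and EXLB1), 2 of 9 XTH genes (XTH16 and XTH32) and 3 of 22 TBL genes (TBL25, TBL26 and TBL45). The median difference was -0.09 over the 49 genes and -0.28 over the expansins, against 0.00 over all probe sets. No expansin or XTH gene was called higher. In the same comparison the photosynthetic marker LHCB4.2 was lower in camta1/2/3 by 0.49 (adjusted p = 0.0468) and the guard cell marker FAMA by 0.53 (adjusted p = 0.0158). Their part in these results was not tested.

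After TBL26, the largest of these differences was that of EXLA1, at -1.61 ± 0.38 (3.06-fold, adjusted p = 0.00514), followed by EXPB1 at -1.37 ± 0.17 (2.58-fold, adjusted p = 4.08e-05) and XTH32 at -1.36 ± 0.23 (2.56-fold, adjusted p = 0.000438). EXPB3 was lower by 1.05 ± 0.22 (adjusted p = 0.00258). None of these overlapped between genotypes. TBL45 (AT2G30010) read 6.92, 6.82 and 6.65 in camta1/2/3, against 7.44, 7.71 and 8.20 in WT, a difference of -0.99 ± 0.20 (adjusted p = 0.00175). The lower values of EXPA16 (-0.55) and XTH16 (-0.74) were not called with the actin gap in the model (adjusted p = 0.151 and 0.0752). The call of EXPA16 was lost in 5 of 6 fits without an array (adjusted p up to 0.148), and that of XTH16 in some (up to 0.0622). The lower value of EXLB1 was not called without camta1/2/3 replicate 2 (-0.64, adjusted p = 0.056).

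TBL38 (AT1G29050) was the gene higher in camta1/2/3 at 22 °C. It read 6.70, 6.64 and 6.88 in camta1/2/3, against 5.63, 6.25 and 6.23 in WT. The groups did not overlap, and the difference was 0.70 ± 0.16 (1.63-fold, adjusted p = 0.00487).

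The double mutants at 22 °C differed in how many of the genes were lower than in WT. In camta1/2 no gene was called, against 0.163% of all probe sets (0.101% higher and 0.0615% lower). In limma's test 6 of the 49 had an unadjusted p under 0.05, which was not counted over all probe sets. In camta1/3 the mannan genes TBL25 and TBL26 were lower and none was higher, 4.08% against 2.21% of all probe sets (1.67% higher and 0.541% lower). In camta2/3 7 genes were lower and none higher, 14.3% against 10.1% (4.61% higher and 5.51% lower). They were EXPA4, EXPB1, EXPB3, EXLA1, XTH32, TBL25 and TBL26. All 7 were among the 11 lower in camta1/2/3, but these comparisons share the WT arrays. The guard cell marker FAMA was also lower in camta2/3 than in WT, by 0.54 (adjusted p = 0.0284), and its part was not tested.

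For TBL26 the camta1/2 arrays read 5.07, 5.44 and 5.23, the camta1/3 arrays 4.76, 4.15 and 4.11, and the camta2/3 arrays 2.77, 2.86 and 2.39. Of the double mutants, camta2/3 was nearest to camta1/2/3, and camta1/3 lay between that pair and WT. The difference from WT was -0.81 in camta1/2, which was not called, -1.72 ± 0.27 in camta1/3 (adjusted p = 0.00456) and -3.38 ± 0.27 in camta2/3 (10.4-fold, adjusted p = 1.08e-05). With the arrays of camta1/3 and WT alone, the camta1/3 value had an adjusted p of 0.263. The lower value of TBL25 in camta1/3 (-0.57 ± 0.14, adjusted p = 0.0423) was lost in 4 of 6 fits without an array (adjusted p up to 0.196).

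EXLA1 read 5.91, 6.18 and 6.66 in camta1/2, 6.98, 5.85 and 5.49 in camta1/3 and 5.53, 5.05 and 5.53 in camta2/3. It was lower than WT by 1.35 ± 0.38 in camta2/3 (adjusted p = 0.0318), and that call was lost in all 6 fits without an array (adjusted p up to 0.117). XTH32 read 8.48, 7.97 and 8.75 in camta1/2, 7.90, 7.56 and 8.16 in camta1/3 and 7.12, 7.46 and 7.49 in camta2/3, and was lower by 1.05 ± 0.23 in camta2/3 (adjusted p = 0.00755). For both genes the camta2/3 arrays lay below every WT array. The fall of TBL25 in camta2/3 was 0.92 ± 0.14 (adjusted p = 0.000565) and that of EXPB1 0.84 ± 0.17 (adjusted p = 0.00528). EXPA4 and EXPB3 were lower there by less, and the call of EXPB3 was lost in 5 of 6 fits without an array (adjusted p up to 0.183).

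In all 11 genes lower in camta1/2/3 the group mean was lowest in camta1/2/3 and that of camta2/3 was below camta1/2, camta1/3 and WT. For 8 of them (EXPA4, EXPA16, EXPB3, EXLA1, XTH32, TBL25, TBL26 and TBL45) the means followed the order camta1/2/3, camta2/3, camta1/3, camta1/2, WT, low to high. Neighbours in this order often overlapped: EXPA4 read 6.65, 6.83 and 6.60 in camta1/2/3 and 6.67, 6.64 and 6.98 in camta2/3. Both ends of the order, camta1/2/3 and WT, are fixed in part by how these 11 were picked. How often other probe sets follow the order was not counted, so the order is a description.

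**Figure D4:**
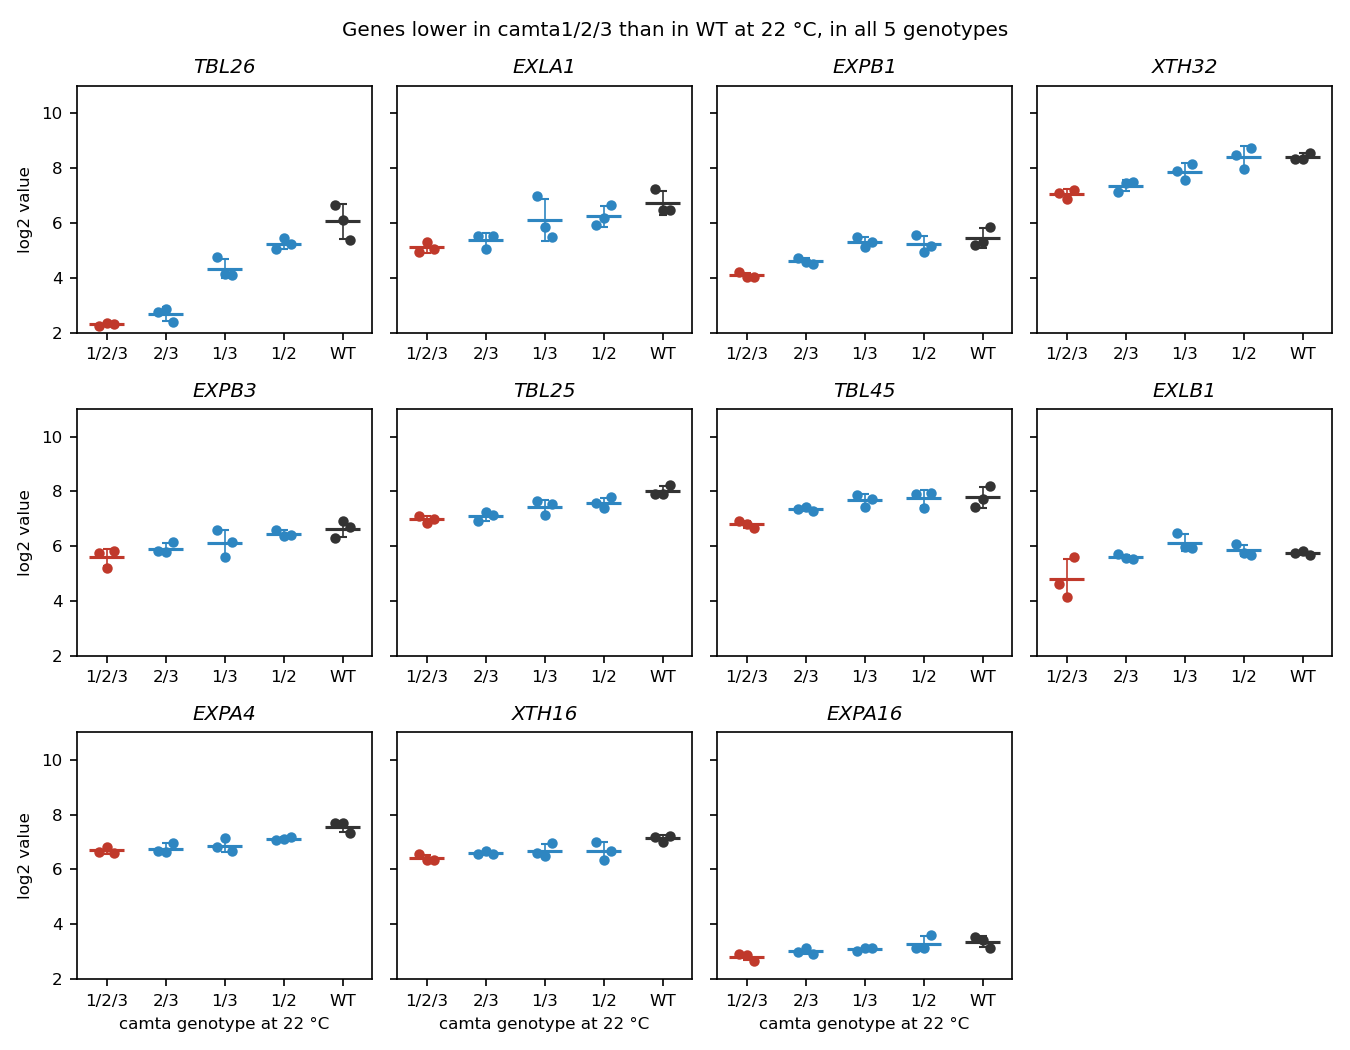
Log2 value on each array at 22 °C (points), with group mean and SD (bars), of the 11 genes lower in camta1/2/3 than in WT, with the genotypes from camta1/2/3 at the left through camta2/3, camta1/3 and camta1/2 to WT at the right. TBL26 has the widest steps, with means of 2.30 in camta1/2/3, 2.67 in camta2/3, 4.34 in camta1/3, 5.25 in camta1/2 and 6.06 in WT.

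Setting camta1/2/3 against each double mutant asked what was added by losing whichever of CAMTA1, CAMTA2 and CAMTA3 the double mutant still had. Against camta1/2, 10 genes were lower and 1 higher in camta1/2/3, 22.4% against 15.5% of all probe sets (8.47% higher and 7.06% lower). The lower ones were EXPB1, EXPB2, EXPB3, EXLB1, XTH32, XTH33, TBL25, TBL26, TBL28 and TBL45. Without single arrays the calls of TBL28 and XTH33 were each lost in 5 of 6 fits (adjusted p up to 0.11 and 0.112), that of EXPB2 in 3 (up to 0.16; -0.31 without camta1/2 replicate 3) and that of EXPB3 in 2 (up to 0.067), and the groups of XTH33 overlapped. Against camta1/3, 6 were lower and 2 higher, 16.3% against 9.57% (4.43% higher and 5.14% lower). Those 6 were EXPB1, EXLB1, XTH32, TBL25, TBL26 and TBL45, all lower against camta1/2 as well, with the camta1/2/3 arrays in common, and the calls of XTH32 and TBL25 were each lost in 5 of 6 fits without an array (adjusted p up to 0.136 and 0.196). Against camta2/3 none was called, compared with 1.43% of all probe sets. There 5 of the 49 had an unadjusted p under 0.05 in limma's test, again not counted over all probe sets. The root marker PYK10 was higher in camta1/2/3 than in each double mutant, by 1.64 against camta1/2 (adjusted p = 0.00219), by 1.26 against camta1/3 (0.0186) and by 1.39 against camta2/3 (0.0387), and its part in these results was not tested.

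TBL26 was lower in camta1/2/3 by 2.95 ± 0.27 than in camta1/2 (adjusted p = 7.6e-06) and by 2.04 ± 0.27 than in camta1/3 (adjusted p = 0.000314). Against camta2/3 its difference was -0.37 (95% interval -0.95 to 0.21). EXPB1 read 5.57, 4.96 and 5.17 in camta1/2, 5.48, 5.11 and 5.31 in camta1/3 and 4.74, 4.58 and 4.52 in camta2/3. All of these lay above its warm camta1/2/3 values, which differed by -1.15 ± 0.17 from camta1/2 (adjusted p = 0.00039), by -1.21 ± 0.17 from camta1/3 (adjusted p = 0.000505) and by -0.53 from camta2/3 (95% interval -0.89 to -0.16, not called after adjustment).

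EXLB1 (AT4G17030), the one gene of the expansin-like B family here, read 4.62, 4.16 and 5.60 in camta1/2/3, against 6.09, 5.77 and 5.68 in camta1/2, 6.49, 5.97 and 5.92 in camta1/3, 5.71, 5.57 and 5.55 in camta2/3 and 5.75, 5.83 and 5.67 in WT. Replicate 3 of camta1/2/3 lay within the range of camta2/3 and the other 2 arrays well below. The difference was -1.05 ± 0.25 against camta1/2 (adjusted p = 0.00993), -1.33 ± 0.25 against camta1/3 (adjusted p = 0.00358) and -0.96 ± 0.25 against WT (adjusted p = 0.0113). TBL45 was lower by 0.96 ± 0.20 than in camta1/2 (adjusted p = 0.00363) and by 0.87 ± 0.20 than in camta1/3 (adjusted p = 0.0113, and 0.0546 without camta1/3 replicate 1). Against camta1/2 XTH32 was lower by 1.35 ± 0.23 (adjusted p = 0.000918).

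TBL38 read 5.59, 5.72 and 6.11 in camta1/2, 6.10, 5.74 and 5.81 in camta1/3 and 5.98, 6.05 and 6.23 in camta2/3, all under its camta1/2/3 values. It was higher in camta1/2/3 by 0.93 ± 0.16 than in camta1/2 (adjusted p = 0.00115) and by 0.86 ± 0.16 than in camta1/3 (adjusted p = 0.0037). Against camta2/3 the difference was 0.65 (95% interval 0.31 to 1.0), just outside the threshold (adjusted p = 0.0637). TBL16 (AT5G20680) was higher than in camta1/3, at 4.44, 4.17 and 4.16 in camta1/2/3 against 3.73, 3.61 and 3.75 in camta1/3 (0.56 ± 0.15, adjusted p = 0.0242), and without camta1/2/3 replicate 1 it was not called (0.47, adjusted p = 0.102).

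**Figure D5:**
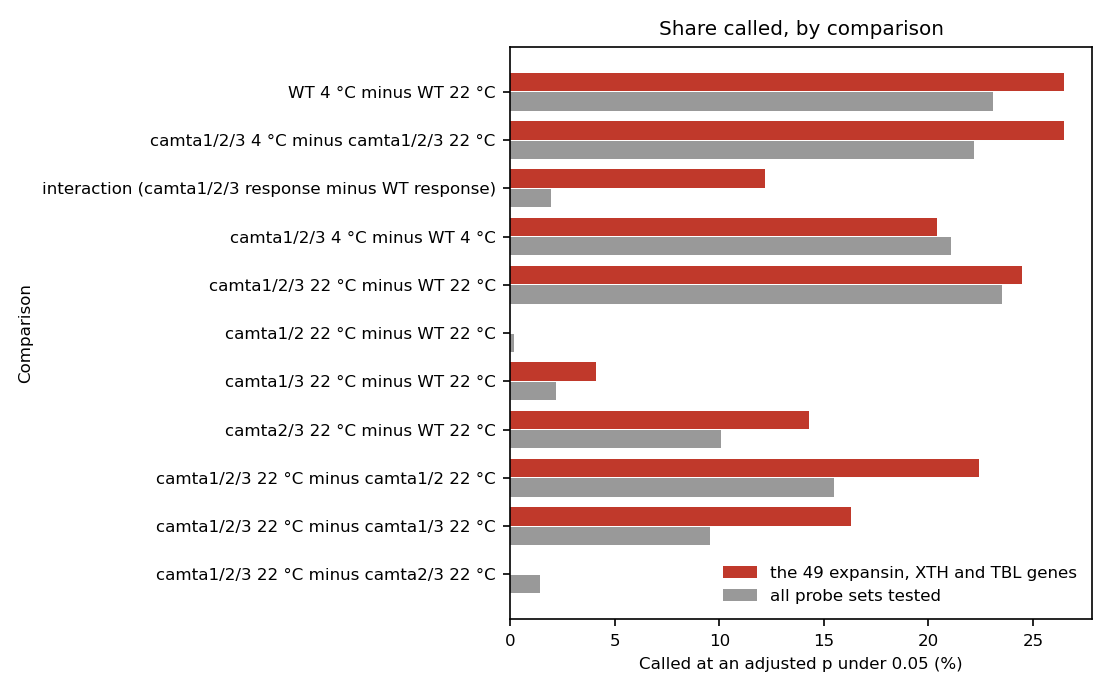
Share of the 49 genes and of all probe sets tested that were called at an adjusted p under 0.05 (horizontal, percent), for each of the 11 comparisons (vertical). The bars are of like length for cold in WT (26.5% against 23.1%) and for camta1/2/3 against WT at 22 °C (24.5% against 23.5%). Among the comparisons in which any of the 49 genes was called, they differ most in proportion for the interaction (12.2% against 1.97%).

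Of other genes that make or modify the wall, 16 from lists of cellulose, cellulose synthase-like, pectin and xylan genes were named on the array. Cold raised 1 and lowered 3 of them in camta1/2/3, 25.0% against 22.2% of all probe sets, and raised 3 and lowered 4 in WT, 43.8% against 23.1%. The WT calls include GH9A3 (0.28) and CSLC12 (-0.11), which stayed between 2.26 and 3.12, had overlapping groups and were each lost in 4 of 6 fits without an array. CSLA03, of the family that makes mannan backbones, averaged 3.81 ± 0.24 at 4 °C and 5.70 ± 0.10 at 22 °C in camta1/2/3, and 3.30 ± 0.45 at 4 °C and 6.51 ± 0.34 at 22 °C in WT. Its change was -1.89 ± 0.29 in camta1/2/3 (adjusted p = 0.000194) and -3.21 ± 0.29 in WT (adjusted p = 1.12e-06). CSLC04, which makes the glucan backbone of xyloglucan, fell by 1.73 ± 0.17 in camta1/2/3 (adjusted p = 2.76e-06) and by 1.99 ± 0.17 in WT (adjusted p = 5.08e-07). None of the 16 was called for the interaction.

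Between the genotypes, none of the 16 was higher in camta1/2/3, 5 were lower at 4 °C (31.2%, against 21.1% of all probe sets) and 6 at 22 °C (37.5%, against 23.5%). At 4 °C one of them was GH9A3, again with overlapping groups. ATPMEPCRB, a pectin methylesterase, was lower by 1.52 ± 0.31 at 4 °C (adjusted p = 0.00263) and by 1.20 ± 0.31 at 22 °C (adjusted p = 0.0106, and 0.0551 without WT replicate 2), where the groups overlapped. CSLC5, another xyloglucan backbone gene, was lower by 1.16 ± 0.17 at 4 °C (adjusted p = 0.00018) and by 1.11 ± 0.17 at 22 °C (adjusted p = 0.000227). GAUT15, of the pectin galacturonosyltransferase family, was higher at 4 °C than at 22 °C in both genotypes, by 0.98 ± 0.11 in camta1/2/3 (adjusted p = 1.82e-05) and by 0.62 ± 0.11 in WT (adjusted p = 0.000929), and lower in camta1/2/3 than in WT at 22 °C by 0.90 ± 0.11 (adjusted p = 4.43e-05).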

How the data were processed

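Per the labels' protocols, RNeasy kits gave total RNA of the aerial parts, which was amplified (MessageAmp) and biotinylated. The table the authors deposited holds log2 values per probe set; the submitters' processing notes name GCRMA and limma, with versions not given in the sources used here. Values were used as deposited, and all 21 columns were matched to samples by name. The labels call the arrays biological replicates and do not say whether they came from separate plantings, so p-values measure the spread between these samples.

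Of 22810 probe sets, 64 controls were left out and 22746 tested, whatever their level. The array annotation that named the genes gives 13513 probe sets 1 gene, 503 several and 8730 none. All 49 genes matched the RefSeq annotation with the same symbol. Wall genes without a named probe set, which may include further expansin, XTH and TBL genes, were not analysed here. Every listed arabinogalactan protein and extensin was among those without a named probe set.

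All 21 arrays entered a linear model with a mean for each of 7 groups, in limma 3.58.1 and R 4.3.3 (lmFit and eBayes, 14 residual and 0.954 prior degrees of freedom). From it 11 differences were tested, two-sided, and p-values were adjusted by the Benjamini-Hochberg method over all probe sets of a comparison, with calls at an adjusted p under 0.05. Fits were checked on simulated data. The precision is limited by 3 arrays per group.

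The genes, the lists of other wall genes and markers and the tests were chosen with earlier results of these data known. Values are given in full for up to 5 called genes with the largest rises and 5 with the largest falls per comparison, for every gene called for the interaction and for the gene of each family with the highest mean; of the other wall genes, up to 3 per comparison are named. The alternatives were quantile normalization, centring, a filter at a mean of 4, a replicate block, only the arrays compared, trended and robust variances, the actin 3′ to 5′ gap as a covariate, an adjusted p under 0.01, a 2-fold limit, and leaving out each array in turn.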

Additional observations from a re-analysis of the deposited data

Results flagged for a closer look

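The cold response (4 °C minus 22 °C) of 6 genes was called different between camta1/2/3 and WT by the test of the difference itself, limma's interaction term. The difference, the response of camta1/2/3 minus that of WT, was -2.44 for EXLA1 (adjusted p = 0.0276), -2.29 for EXPA16 (adjusted p = 0.000259) and -0.86 for XTH19 (adjusted p = 0.0295), the genes whose cold increase was called in WT and not in camta1/2/3. It was 1.55 for XTH20 (adjusted p = 0.0024), called higher with cold in camta1/2/3 alone. It was 1.52 for EXPB1 (adjusted p = 0.00422), lower with cold in both genotypes and near the lowest values of the table in both cold groups, which leaves the size of this difference undetermined, and 1.35 for EXPB3 (adjusted p = 0.0382), lower with cold in WT. EXPA16 and XTH19 averaged near 3 or under in camta1/2/3 at both temperatures, where a change may be understated. The calls of EXPB3, EXLA1 and XTH19 were lost in 10, 8 and 7 of 12 fits without an array, in that order. All 3 were also lost with only the 12 arrays of the 4 groups compared. No group was tested for outlying arrays, since each holds 3.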

How the results depend on the processing

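No call on the 49 genes changed direction under any alternative run. Only quantile normalization, centring, the actin covariate and leaving out arrays could change a difference. The other settings kept the group differences as they were, so they could not reverse a call. Of the 82 calls, 81 remained with quantile normalization, 80 with centring, 80 with trended and robust variances, 79 with the replicate block, 70 with the actin gap as a covariate, 58 at an adjusted p under 0.01, 45 with a 2-fold limit and 44 with only the arrays compared; all 71 with a mean of at least 4 remained with that filter. Same-numbered arrays of different groups were not treated as paired in the main fit. Their deviations from the group means correlated at -0.161 at the lowest and 0.0829 at the median, with 42.9% of such pairs over 0.1. By these deviations 16 of 21 arrays were closest to an array of their own number. What same-numbered arrays may share was not tested. The replicate block lost EXPA16 (camta1/2/3 against WT at 22 °C, adjusted p = 0.0612) and TBL25 (cold in camta1/2/3, 0.0503, and camta1/2/3 against camta1/3, 0.0502). It added the cold fall of TBL26 in WT (0.0413), that of TBL38 in camta1/2/3 (0.0497), TBL38 in camta1/2/3 against WT at 4 °C (0.037) and against camta2/3 (0.0436), and EXLA1 in camta1/2/3 against camta1/2 (0.0458). The causes of the changes were not tested.

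These counts of called genes moved by over 1.5 times. At an adjusted p under 0.01 there were 3 for the interaction, 1 for camta1/3 against WT, and 7 and 4 for camta1/2/3 against camta1/2 and camta1/3; of the other wall genes there were 4 for cold in WT and 3 for camta1/2/3 against WT at 22 °C. With a 2-fold limit there were 5 and 6 for camta1/2/3 against WT at 4 and 22 °C, 1 for camta1/3 and 3 for camta2/3 against WT, and 4 and 3 for camta1/2/3 against camta1/2 and camta1/3; of the other wall genes there were 3 for cold in WT, and 2 each for cold in camta1/2/3 and for camta1/2/3 against WT at 4 and at 22 °C. With only the arrays compared there were 0 for camta1/3 and 4 for camta2/3 against WT, and 6 and 2 for camta1/2/3 against camta1/2 and camta1/3, and of the other wall genes 3 for cold in WT and 3 for camta1/2/3 against WT at 4 °C; fewer arrays estimate the spread there. The actin gap left 1 for camta1/3 against WT. Against camta2/3, camta1/2/3 had 1 called gene, TBL38, with centring, with the filter and with the replicate block.

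Leaving out each array in turn kept 424 of 528 calls. Counts ranged from 3 to 6 for the interaction (3 without WT replicate 1 at 4 °C, camta1/2/3 replicate 2 at 22 °C or WT replicate 3 at 22 °C), from 12 to 13 for cold in WT, from 11 to 13 for cold in camta1/2/3, and from 9 to 10 at 4 °C and 9 to 14 at 22 °C for camta1/2/3 against WT. Against WT they ranged from 0 to 1 for camta1/2 (1 without its replicate 2), 1 to 2 for camta1/3 and 5 to 6 for camta2/3. For camta1/2/3 they ranged from 8 to 11 against camta1/2, from 4 to 8 against camta1/3 (4 without camta1/3 replicate 1) and from 0 to 1 against camta2/3 (1 without camta1/2/3 replicate 3). Of the other wall genes 0 to 1 was called for the interaction.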
